A study of Mus musculus with 12 samples.

Results

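The 48 genes described here act in DNA replication and S phase. They were taken by name from the count tables, and all 48 were found among 55291 symbols and passed the expression filter that 18147 symbols passed. The 12 RNA-seq libraries were labelled as VE-cadherin-positive endothelial cells of VECadCre-tdTomato mice, in 4 groups of 3. The marrow AML and lung AML groups came from bone marrow and lungs of mice transplanted with acute myeloid leukaemia (AML) cells of genotype Trp53(R172H/Δ), and the marrow control and lung control groups from mice of the same reporter line without a transplant. VECadCre expresses Cre recombinase under the promoter of Cdh5, which encodes VE-cadherin, so all groups carry the same Cre and the same red fluorescent reporter. Ages, sexes and whether each replicate was a separate mouse are not given in the labels, so p-values measure the spread between these libraries, which may be technical.

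Before a cell divides, the origin recognition complex, Cdc6 and Cdt1 load rings of MCM2-7 proteins onto DNA, which licenses the origins. E2F transcription factors induce many of these genes at the entry into S phase, when cyclin-dependent and Dbf4-dependent kinases drive the joining of Cdc45 and GINS to the loaded rings to form active helicases. DNA polymerases, the sliding clamp, nucleotide-making enzymes and histone chaperones follow the fork. In adult marrow these genes are known for high levels in dividing blood precursors, erythroid ones among them, while most endothelial cells of adult vessels divide rarely.

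Depth was 12.8 to 39.2 M counts per library. The label of endothelial cells was checked against 15 pan-endothelial marker genes. Their summed level was 158 to 233 CPM (counts per M counts, scaled by TMM factors) in marrow AML, against 183 to 294 CPM in marrow control, and 303 to 1073 CPM in lung AML, against 2408 to 8476 CPM in lung control. None of the 15 was at 0 in a whole group, but Cdh5 averaged 0.634 ± 0.291 CPM in marrow AML and 4.91 ± 1.51 CPM in marrow control (SD, n = 3 each). Some lists of markers of other cells were higher in the same libraries. In the marrow, 10 stromal and osteolineage genes summed to 12262 to 21794 CPM in marrow AML and 15497 to 21253 CPM in marrow control. There 15 erythroid genes summed to 851 to 4544 CPM in marrow AML and 23173 to 25913 CPM in marrow control. In the lung, 10 epithelium genes summed to 218828 to 257297 CPM in lung AML and 156315 to 198224 CPM in lung control. Leukocyte, neutrophil and B cell lists summed to less than the pan-endothelial list in marrow control. The levels below are therefore those of the labelled libraries, and no cell type is assigned to them.

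Promoters are shown first because E2F proteins are known to act on many replication genes through them. RefSeq promoter windows (build GRCm38.p6, 250 bases before to 50 bases after the start) were matched for 41 of the 48 genes. Genes without a window were Mcm4, Gins1, Gins2, Gins4, Pole, Rfc2 and Ccne2. Only the first start listed for a gene was used. Lig1 had 3 starts listed, and Mcm7, Pold2, Fen1, Uhrf1 and Tfdp2 had 2 each, so their other starts were not searched. Both strands were searched for 2 E2F-like motifs, TTTNNCGC and GCGGGAA, which can overlap each other. TTTNNCGC was in 15 of 41 windows (36.6%), against 5.27% of all 27025 windows of that length, and GCGGGAA in 16 of 41 (39.0%), against 4.66% of all. At least 1 of them was in 22 of 41 windows (53.7%), against 8.56% of all, and both were in 9 (22.0%), against 1.38%. The CCAAT motif was in 24 of 41 (58.5%), against 37.9% of all, and the CHR-like motif TTTGAA in 6 of 41 (14.6%), against 18.1% of all. These shares describe letters in a window and are no measure of binding. Printed below are the 150 bases before the start for the most abundant gene with a match in each role group that has one within these bases, and for Pola1, which holds both, so that the motifs can be seen in place. Pold2, which had the smallest fall in marrow AML, is shown as a promoter with no match in these bases. The window of Ccne1, which had the largest fall (log2 fold change -3.77), held no match either. Whether matches go with the size of the fall was not tested. Each printed stretch is given 5′ to 3′ on the gene's own strand, with E2F-like matches in capitals.
Mcm6 (chr1:128359706-128359855, minus strand): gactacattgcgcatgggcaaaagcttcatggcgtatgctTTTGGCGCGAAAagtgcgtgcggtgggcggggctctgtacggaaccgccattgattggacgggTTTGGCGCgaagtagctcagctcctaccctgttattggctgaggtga
Gins3 (chr8:95633409-95633558, plus strand): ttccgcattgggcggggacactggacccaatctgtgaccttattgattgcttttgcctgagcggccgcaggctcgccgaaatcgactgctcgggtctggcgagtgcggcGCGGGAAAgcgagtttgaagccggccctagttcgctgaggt
Prim1 (chr10:128015065-128015214, plus strand): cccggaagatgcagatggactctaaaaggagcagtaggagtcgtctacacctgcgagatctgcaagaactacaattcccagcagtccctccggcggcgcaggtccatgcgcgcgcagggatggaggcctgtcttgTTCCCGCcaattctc
Pola1 (chrX:93632156-93632305, minus strand): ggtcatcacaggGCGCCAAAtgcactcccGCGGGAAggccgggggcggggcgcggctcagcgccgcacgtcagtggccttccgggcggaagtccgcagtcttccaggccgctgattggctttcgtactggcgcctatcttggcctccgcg
Rfc3 (chr5:151651209-151651358, minus strand): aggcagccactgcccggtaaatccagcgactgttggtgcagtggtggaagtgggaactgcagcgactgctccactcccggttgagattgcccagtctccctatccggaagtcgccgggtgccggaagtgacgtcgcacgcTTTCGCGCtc
Rpa2 (chr4:132768210-132768359, plus strand): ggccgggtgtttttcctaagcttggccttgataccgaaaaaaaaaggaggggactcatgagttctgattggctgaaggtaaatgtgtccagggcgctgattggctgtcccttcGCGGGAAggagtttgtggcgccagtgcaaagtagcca
Rrm1 (chr7:102441545-102441694, plus strand): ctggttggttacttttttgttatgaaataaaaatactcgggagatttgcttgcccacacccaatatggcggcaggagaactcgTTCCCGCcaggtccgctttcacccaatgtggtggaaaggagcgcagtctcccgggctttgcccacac
Uhrf1 (chr17:56303187-56303336, plus strand): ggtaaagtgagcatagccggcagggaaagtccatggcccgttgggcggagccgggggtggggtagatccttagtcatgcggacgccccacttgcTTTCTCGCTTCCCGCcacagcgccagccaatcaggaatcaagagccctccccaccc
Pold2 (chr11:5878257-5878406, minus strand): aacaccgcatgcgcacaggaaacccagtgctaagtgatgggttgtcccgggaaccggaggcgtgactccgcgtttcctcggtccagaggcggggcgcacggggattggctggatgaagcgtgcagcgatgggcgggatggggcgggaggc
In Mcm6 the first capital run holds TTTNNCGC on both strands, and a further copy follows nearer the start. Uhrf1 holds its TTTNNCGC and GCGGGAA matches side by side, the second on the other strand, and Pola1 holds them a few bases apart. In Gins3 they overlap on opposite strands, and Prim1, Rpa2 and Rrm1 hold GCGGGAA alone, read on the other strand in Prim1 and Rrm1.

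In the marrow, every one of the 48 genes fell with AML. Their summed level was 6441, 3967 and 3230 CPM in marrow AML libraries 1, 2 and 3, against 25547, 26390 and 24740 CPM in marrow control libraries 1, 2 and 3. The means were 4546 ± 1682 CPM in marrow AML and 25559 ± 825 CPM in marrow control (SD, n = 3 each), so the control sum was 5.62 times the AML sum. By edgeR's quasi-likelihood test with Benjamini-Hochberg adjustment over all genes tested, 48 of 48 genes were called lower, where 23.5% of all genes tested were called lower, 20.4% higher and 43.8% in either direction. The median log2 fold change over the 48 was -2.37, beside -0.11 over all genes tested. No AML library reached the lowest control library for any of the 48, a pattern that 27.5% of all genes showed. In bulk libraries, fewer cells of a type and less RNA per cell cannot be told apart. Erythroid markers moved with this result: 15 of 15 fell, with a median log2 fold change of -4.05. They summed to 851 to 4544 CPM in marrow AML and 23173 to 25913 CPM in marrow control. None was at 0 in a whole group, but Trim58 was at 0 in marrow AML libraries 2 and 3. Of 15 pan-endothelial genes 8 were lower and 1 higher, with a median of -1.77. Of 10 leukocyte markers 7 were higher and 1 lower, at 171 to 197 CPM in marrow AML and 130 to 164 CPM in marrow control. Of 10 myeloid progenitor and blast genes 3 were called higher (Kit, Hoxa9 and Meis1) and 0 lower, with a median of 0.44. In that list 5 values were above 0 and 5 below, the lowest being Elane at -3.31 (adjusted p = 0.136). The part of these lists in the fall was not tested. The sum of the 48 genes over that of the 15 erythroid genes was 1.42, 2.70 and 3.79 in marrow AML libraries 1, 2 and 3, against 1.10, 1.03 and 0.955 in the marrow controls, so the erythroid sum was the lower by a wider margin in each AML library.

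**Figure D1:**
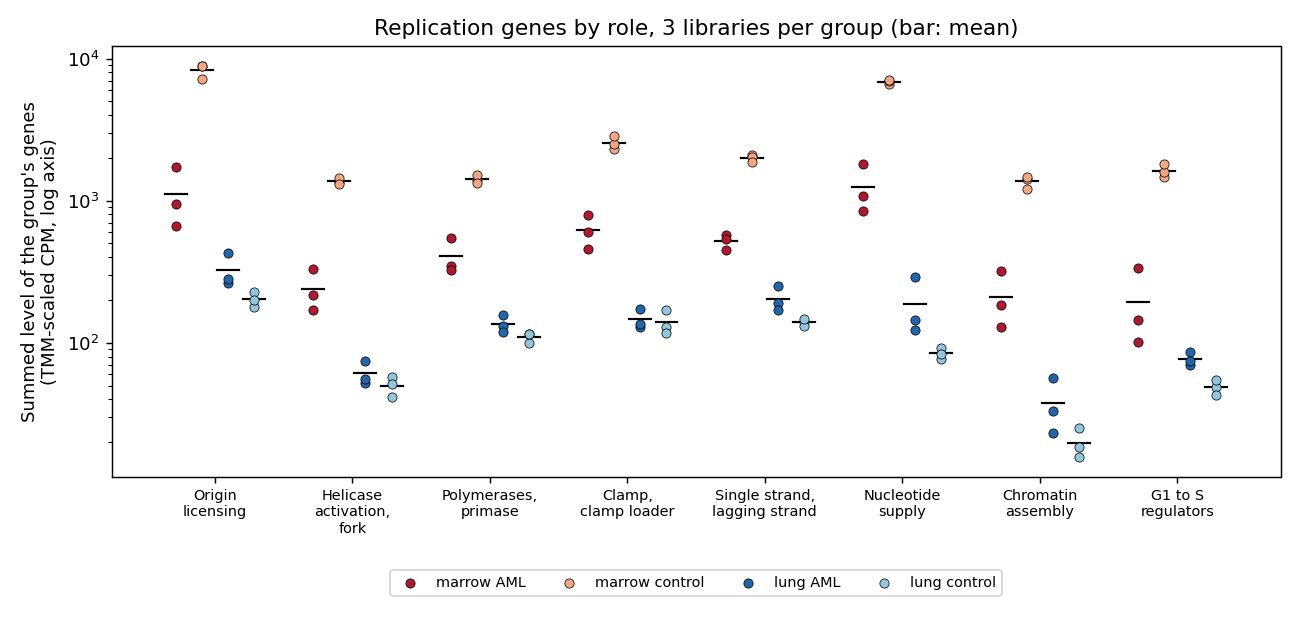
Summed level of the 48 replication genes by role, in TMM-scaled CPM on a log axis, with 1 point per library, a bar for each mean of 3, and groups from left to right marrow AML, marrow control, lung AML and lung control. In each of the 8 roles the marrow AML points lie below the marrow controls, and the nucleotide supply sum is 842 to 1807 CPM in marrow AML against 6579 to 7115 CPM in marrow control.

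Origin licensing genes fell in all 10 cases, with a median log2 fold change of -2.90. The 10 genes summed to 667 to 1731 CPM in marrow AML and 7218 to 8936 CPM in marrow control. Mcm6, a subunit of the MCM2-7 ring, was at 361, 207 and 141 CPM in marrow AML libraries 1 to 3, against 1805, 1575 and 1320 CPM in marrow control libraries 1 to 3 (log2 fold change -2.73 ± 0.34, SE, adjusted p = 0.000144). Mcm7, another subunit, was at 236, 150 and 151 CPM in marrow AML, against 1337, 1410 and 1081 CPM in marrow control (log2 fold change -2.83 ± 0.23, adjusted p = 1.88e-05). For both genes the highest AML library was well under the lowest control library. The other ring subunits fell by 2.78 (Mcm3) to 3.38 (Mcm2) on the log2 scale. Of the loading factors, Cdc6 fell by 3.40, Cdt1 by 2.89, Orc1 by 3.56 and Orc6 by 2.25 on that scale. Orc1 and Orc6 encode the largest and the smallest subunit of the origin recognition complex.

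Helicase activation and fork assembly genes fell in 7 of 7 cases, with a median of -2.25. Wdhd1, which links the helicase to DNA polymerase alpha, was at 45.2, 31.0 and 23.9 CPM in marrow AML, against 393, 374 and 299 CPM in marrow control (log2 fold change -3.42 ± 0.23, adjusted p = 1.17e-05). Gins4, a GINS subunit, was at 95.3, 57.6 and 50.4 CPM in marrow AML, against 225, 256 and 313 CPM in marrow control (log2 fold change -1.97 ± 0.26, adjusted p = 0.000184). The fitted fall was larger for Wdhd1, a difference between genes that was not tested, and library 1 was the highest AML library for both. Cdc45, the helicase partner, fell by 2.25, and the other GINS genes by 2.02 (Gins2), 2.11 (Gins3) and 2.59 (Gins1) on the log2 scale. Mcm10, which helps the helicase to start, fell by 3.53. Counting ignored the strand and 67.3% of Gins2's exon bases overlap the gene Gse1 on the other strand, so its value is uncertain.

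The polymerase and primase genes also fell in 7 of 7 cases, with the smallest median of the 8 roles, -1.93. Prim1, the catalytic primase subunit, was at 120, 86.8 and 83.7 CPM in marrow AML, against 303, 351 and 441 CPM in marrow control (log2 fold change -1.91 ± 0.25, adjusted p = 0.000184). Pola2, the second subunit of polymerase alpha, was at 87.4, 48.8 and 48.0 CPM in marrow AML, against 277, 321 and 248 CPM in marrow control (log2 fold change -2.20 ± 0.26, adjusted p = 0.000112). Pola1 fell by 2.41, Pold1 by 2.12, Pole by 1.93 and Pole2 by 1.73 on the log2 scale. They encode the catalytic subunits of polymerases alpha, delta and epsilon, and the second epsilon subunit.

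Pold2, the second subunit of polymerase delta, was the mildest of the 48. It was at 137, 72.7 and 98.0 CPM in marrow AML, against 162, 170 and 143 CPM in marrow control (log2 fold change -0.63 ± 0.21, adjusted p = 0.0317). AML library 1 came close to the lowest control, though the groups did not overlap. This call was lost on leaving out marrow control library 1 (adjusted p = 0.0784), marrow control library 2 (0.0932), marrow AML library 2 (0.0978), marrow AML library 3 (0.0701), lung control library 1 (0.0519) or lung AML library 2 (0.151). Scaled by library totals alone, its log2 fold change was -0.31 (adjusted p = 0.252). With a filter of 5 CPM in 3 libraries it was -0.41 (adjusted p = 0.121), and in a fit of the marrow libraries only -0.48 (adjusted p = 0.158).

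Clamp and clamp loader genes fell in 5 of 5 cases, with a median of -1.96. Pcna, the sliding clamp that holds polymerases on DNA, was at 235, 162 and 130 CPM in marrow AML, against 798, 915 and 1021 CPM in marrow control (log2 fold change -2.37 ± 0.23, adjusted p = 3.31e-05). Rfc4, a subunit of the loader that opens the clamp, was at 213, 163 and 123 CPM in marrow AML, against 512, 545 and 781 CPM in marrow control (log2 fold change -1.88 ± 0.26, adjusted p = 0.000266). In both genes the control libraries were above every AML library. The remaining loader subunits fell by 1.58 (Rfc5), 1.96 (Rfc3) and 2.23 (Rfc2) on the log2 scale. Reads of Pcna's pseudogene Pcna-ps2 came to 0.956% of Pcna's counts.

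Single strand binding and lagging strand genes fell in 6 of 6 cases, with a median of -2.24. Rpa1, the large subunit of the protein that coats single-stranded DNA, was at 220, 153 and 284 CPM in marrow AML, against 578, 510 and 581 CPM in marrow control (log2 fold change -1.35 ± 0.25, adjusted p = 0.00137). Lig1, the ligase that joins Okazaki fragments, was at 87.8, 78.8 and 52.1 CPM in marrow AML, against 677, 634 and 513 CPM in marrow control (log2 fold change -3.06 ± 0.33, adjusted p = 5.80e-05). Rpa1 was highest in AML library 3, unlike 46 of the 48 genes, which were highest in AML library 1. Rpa2, another coat subunit, fell by 1.98, Rnaseh2a, the catalytic subunit of RNase H2, by 1.22, and Rfwd3, a ubiquitin ligase at stalled forks, by 2.51 on the log2 scale. Fen1, the flap nuclease, fell by 3.09, but 84.2% of its exon bases overlap other genes (Tmem258 and Gm10143), so its counts are uncertain. Rnaseh2a shares 14.7% of its exon bases with other genes, among them the peroxiredoxin gene Prdx2. Shares near that size also limit genes of other roles: Ccne2 (17.4%), Rfc2 (15.1%), Rfc4 (12.7%), Mcm7 (12.6%), Orc1 (10.8%) and Rfc5 (10.7%).

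Nucleotide supply genes fell in 5 of 5 cases, with a median of -1.95. Rrm2, the small subunit of the ribonucleotide reductase that makes deoxynucleotides, was at 536, 207 and 136 CPM in marrow AML, against 3149, 3183 and 3670 CPM in marrow control (log2 fold change -3.51 ± 0.53, adjusted p = 0.000403). Rrm1, the large subunit, was at 562, 458 and 382 CPM in marrow AML, against 1808, 1706 and 1316 CPM in marrow control (log2 fold change -1.78 ± 0.34, adjusted p = 0.00152). The fitted fall was larger for the small subunit, whose AML libraries were spread more widely, and the difference between the genes was not tested. Exon length here counts every base in any annotated exon of a gene, and is not the length of a single transcript. Per exon length, Rrm2 was the highest of the 48 in marrow control, at 1203 ± 105 CPM per kb (SD, n = 3). In marrow AML it came to 106 ± 77.0 CPM per kb, beside Rfc4 at 108 ± 29.6 CPM per kb (SD, n = 3 each). Tk1, thymidine kinase, fell by 2.93, Tyms, thymidylate synthase, by 1.95, and Dut, which keeps uracil out of DNA, by 1.53 on the log2 scale.

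Chromatin assembly and methylation maintenance genes fell in 4 of 4 cases, with a median of -2.43. Uhrf1, which guides the maintenance methyltransferase to new DNA, was at 95.1, 58.4 and 14.2 CPM in marrow AML, against 619, 657 and 468 CPM in marrow control (log2 fold change -3.38 ± 0.62, adjusted p = 0.00129). Asf1b, a histone chaperone, was at 95.3, 59.1 and 67.3 CPM in marrow AML, against 355, 327 and 369 CPM in marrow control (log2 fold change -2.24 ± 0.32, adjusted p = 0.000313). Uhrf1 was especially low in AML library 3. Chaf1a and Chaf1b, subunits of the chromatin assembly factor that follows the clamp, fell by 2.50 and 2.37 on the log2 scale. Exons of Chaf1a overlap Ubxn6 over 52.5% of their bases, which makes its counts uncertain.

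The 4 regulators of entry into S phase fell as well, with a median of -2.86. Ccne2, a cyclin E, was at 125, 59.5 and 42.8 CPM in marrow AML, against 515, 589 and 955 CPM in marrow control (log2 fold change -3.18 ± 0.47, adjusted p = 0.000363). Ccne1, the other cyclin E, was at 96.7, 20.6 and 3.25 CPM in marrow AML, against 541, 583 and 509 CPM in marrow control (log2 fold change -3.77 ± 0.86, adjusted p = 0.00467). Ccne1 had the largest fitted fall of the 48 and the widest spread, its highest AML library being 29.8 times its lowest. E2f1, an activating E2F, was at 58.7, 22.1 and 5.34 CPM in marrow AML, against 166, 180 and 156 CPM in marrow control (log2 fold change -2.55 ± 0.64, adjusted p = 0.00776). Tfdp2, an E2F partner, fell by 2.20 with a narrow spread in AML, at 53.0, 41.7 and 51.0 CPM.

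The 3 marrow AML libraries were not alike. Of the 48 genes, 46 were highest in AML library 1, and 39 were lowest in AML library 3 and 9 in library 2. The highest AML library was a median of 2.11 times the lowest, against 1.32 times among marrow controls. At the narrow end of the AML libraries stood Rfwd3, at 1.11 times, and at the wide end Ccne1. Erythroid markers had the same order of libraries, with 4544, 1469 and 851 CPM in AML libraries 1, 2 and 3, and so did 15 mitosis genes, with 1349, 1125 and 761 CPM. Depth ran the other way, at 12.8, 21.0 and 24.8 M counts, and what part any of these has in the order was not tested.

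**Figure D2:**
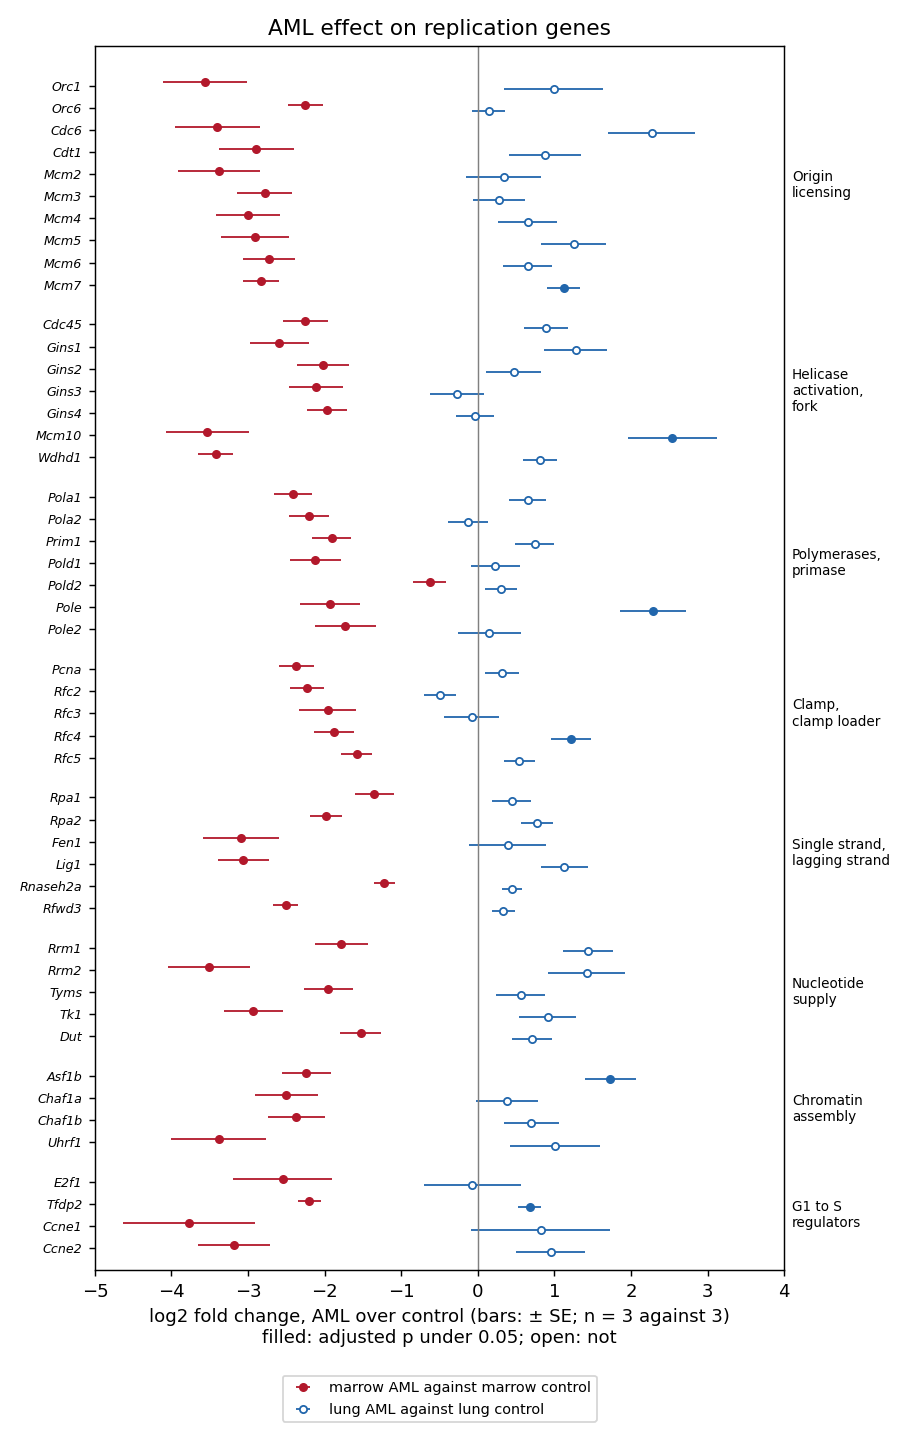
Fitted log2 fold change of AML over control for each of the 48 genes, with bars of ± SE, for marrow (red) and lung (blue), ordered by role from top to bottom, with filled points past an adjusted p of 0.05. All 48 marrow points are filled and below 0, from -3.77 (Ccne1) to -0.63 (Pold2), and 6 lung points are filled, all above 0.

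The subunits of the MCM2-7 ring assemble in equal number, and their RNA shares were taken per exon length as defined above. These shares do not measure the proteins of the ring. On average Mcm6 was the most abundant subunit in marrow AML, at 24.3% ± 0.294 of the 6 genes' summed CPM per kb, and in marrow control, at 21.9% ± 1.39 (SD, n = 3 each). Mcm2 had the lowest share, at 6.85% ± 2.71 in marrow AML and 10.6% ± 0.128 in marrow control (SD, n = 3 each). It also had the longest exon length, 6.956 kb, against 4.666 kb for Mcm6, and its place depends on that length. Not divided by length, Mcm2 averaged 1135 CPM in marrow control, above Mcm3 (975), Mcm4 (757) and Mcm5 (1105). In marrow AML it averaged 109 CPM, above Mcm4 (94.5) and below Mcm3 (142) and Mcm5 (148). Mcm6 and Mcm7 were above it in both groups. The Mcm2 level per length was 27.6, 14.9 and 4.66 CPM per kb in marrow AML libraries 1 to 3, against 179, 177 and 133 CPM per kb in the controls. Mcm2 was thus lowest in AML library 3, while Mcm7 was about level between AML libraries 2 and 3, at 33.8 and 34.2 CPM per kb. In AML library 3 Mcm7 was therefore above Mcm6, which was at 30.2 CPM per kb. In the lung, Mcm4 took 22.0% ± 3.09 in lung AML and 22.6% ± 1.71 in lung control, and Mcm5 took 10.5% ± 2.57 in lung AML and 7.42% ± 1.34 in lung control (SD, n = 3 each). Differences in these shares were not tested.

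**Figure D3:**
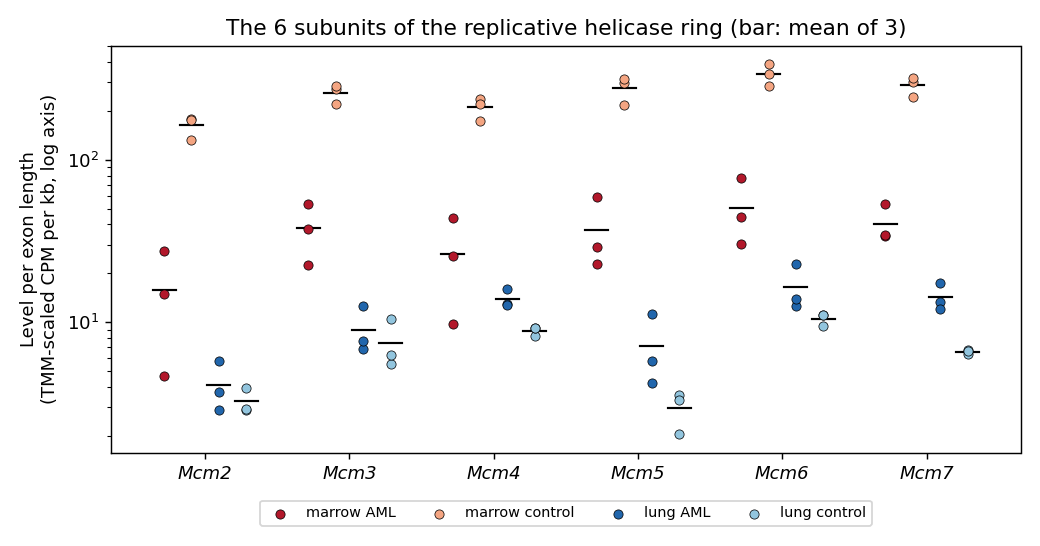
Levels of the 6 ring subunits per exon length, in TMM-scaled CPM per kb on a log axis, with 1 point per library, bars for means, and groups from left to right marrow AML, marrow control, lung AML and lung control. Each subunit's marrow AML libraries lie under its marrow control libraries, as with Mcm6 at 30.2 to 77.4 against 283 to 387 CPM per kb.

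The neighbours of these genes in the same pathways gave a similar picture with a few exceptions. In 5 further lists of 78 replication genes, 62 were lower, 4 higher and 12 not called in marrow AML. Of all genes tested, 23.5% were called lower, 20.4% higher and 43.8% in either direction. Of 14 further origin and initiation genes 13 fell, and the 2 with the smallest p were Orc2 (log2 fold change -1.78, adjusted p = 0.000151) and Orc5 (-0.95, adjusted p = 0.000381), both subunits of the origin recognition complex. Orc4, a subunit too, was not called at -0.19. Of 21 further fork and synthesis genes 18 fell, those with the smallest p being Prim2, the other primase subunit (-2.29, adjusted p = 4.12e-05), and Pole4, a small polymerase epsilon subunit (-1.56, adjusted p = 4.63e-05). Of 8 further chromatin assembly genes 7 fell, and the smallest p went with Nasp, a histone chaperone (-2.31, adjusted p = 3.51e-05), and Hat1, a histone acetyltransferase (-1.70, adjusted p = 5.31e-05), beside a list median of -1.80. Nucleotide supply genes outside the 48 were less uniform, with 8 of 14 lower, 1 higher and 5 not called. Dck, deoxycytidine kinase of the salvage route, had the largest fall of that list (-3.91 ± 0.36, adjusted p = 2.77e-05).

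Against this direction, Pold4, the smallest subunit of polymerase delta, rose in the marrow. It was at 31.6, 13.9 and 29.1 CPM in marrow AML, against 6.19, 5.73 and 7.19 CPM in marrow control (log2 fold change 1.96 ± 0.35, adjusted p = 0.00110). All other polymerase delta genes (Pold1, Pold2 and Pold3) were lower. Shmt1, a cytosolic enzyme of folate metabolism, also rose, at 13.2, 31.4 and 32.5 CPM in marrow AML, against 4.89, 9.45 and 3.11 CPM in marrow control (log2 fold change 2.14 ± 0.45, adjusted p = 0.00297). Neither gene's groups overlapped.

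Among the D-type cyclins, which act before cyclin E, Ccnd2 and Ccnd3 went opposite ways. Ccnd2 was at 123, 113 and 178 CPM in marrow AML, against 30.6, 14.0 and 19.7 CPM in marrow control (log2 fold change 2.69 ± 0.28, adjusted p = 5.02e-05). Ccnd3 was at 230, 147 and 129 CPM in marrow AML, against 1488, 1490 and 1130 CPM in marrow control (log2 fold change -3.02 ± 0.23, adjusted p = 1.61e-05). Ccnd3 was thus far above Ccnd2 in every control library, while in AML library 3 Ccnd2 was the higher in CPM, which is not per length. Of 21 further regulators of entry into S phase, 16 fell, among them Cdk2, the kinase partner of cyclin E (-2.06, adjusted p = 1.92e-05). Besides Ccnd2, E2f5, a repressive E2F, was higher (1.02 ± 0.33, adjusted p = 0.0283), a call that was lost without marrow control library 1 (adjusted p = 0.0932) or 2 (0.104), or marrow AML library 2 (0.0878) or 3 (0.0572), and in the fit of the marrow libraries only (1.16, adjusted p = 0.0895).

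Inhibitors of cyclin-dependent kinases were split. Cdkn1a, known as p21 and a target of p53, was at 211, 268 and 349 CPM in marrow AML, against 51.7, 39.9 and 61.5 CPM in marrow control (log2 fold change 2.44 ± 0.27, adjusted p = 7.48e-05). Cdkn2b was at 7.90, 3.17 and 7.71 CPM in marrow AML, against 0.605, 0.653 and 0.359 CPM in marrow control (log2 fold change 3.51 ± 0.44, adjusted p = 0.000144). Both rose without overlap of the groups, and so did Cdkn1c, chosen after its values were seen (2.33 ± 0.57, adjusted p = 0.00689). Cdkn2c fell by 2.15 (adjusted p = 0.000158). Cdkn1b was lower at -0.91 ± 0.31 (adjusted p = 0.0344), a call lost without marrow control library 2 (adjusted p = 0.104) or 3 (0.0791), marrow AML library 3 (0.084), or lung AML library 1 (0.0555), 2 (0.11) or 3 (0.0519). It was also lost with library totals alone (-0.58, adjusted p = 0.17), limma-voom (0.134), no filter (0.103), the filter of 5 CPM (0.088), the marrow libraries only (0.148) and a replicate block (0.0586). Cdkn2d was not called, and Cdkn2a was below the expression filter. Pericyte and smooth muscle genes moved with the rising group, 8 of 10 being called higher, where 20.4% of all genes tested were. They summed to 2569 to 9358 CPM in marrow AML and 214 to 689 CPM in marrow control. None was at 0 in a whole group, and the part of these genes was not tested.

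**Figure D4:**
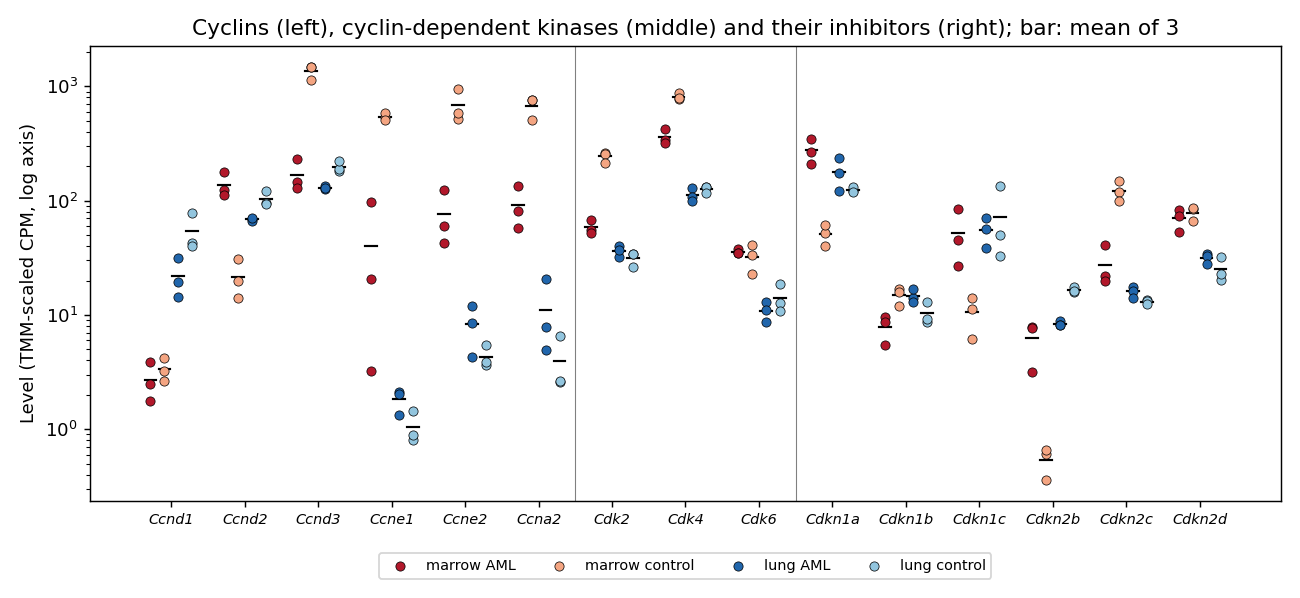
Levels of cyclins, cyclin-dependent kinases and their inhibitors in TMM-scaled CPM on a log axis, with 1 point per library, bars for means, and groups from left to right marrow AML, marrow control, lung AML and lung control. Ccnd2 and Cdkn1a are higher in marrow AML than in marrow control, at 113 to 178 against 14.0 to 30.6 CPM and at 211 to 349 against 39.9 to 61.5 CPM, while Ccnd3, Ccne1, Ccne2, Ccna2 and Cdk2 are lower.

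Mitosis genes followed the replication genes, with 15 of 15 lower, where 23.5% of all genes tested were lower, and a median of -2.40. Bub1b and Bub1, kinases of the spindle checkpoint, fell by 2.02 (adjusted p = 8.92e-05) and 1.95 (adjusted p = 0.000253) on the log2 scale. The replication sum over the mitosis sum was 4.77, 3.53 and 4.25 in marrow AML libraries 1, 2 and 3, against 4.11, 4.40 and 4.22 in marrow control libraries, so the groups overlapped in that ratio.

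In the lung the same genes were far lower in level, and a few were higher with AML. Summed over the 48, the level was 1515, 985 and 1015 CPM in lung AML libraries 1, 2 and 3, against 796, 823 and 763 CPM in lung control libraries 1, 2 and 3. The means were 1171 ± 298 CPM in lung AML and 794 ± 29.9 CPM in lung control (SD, n = 3 each), a ratio of 1.48. By edgeR's quasi-likelihood test 6 of the 48 were called higher, where 1.17% of all genes tested were higher, 1.16% lower and 2.33% in either direction. None was called lower, with 1 gene lower at an unadjusted p under 0.05 and 0 called lower by DESeq2 or limma-voom. The median log2 fold change was 0.66, beside 0.00 over all genes, and 42 of the 48 values were above 0. All 3 AML libraries lay above all 3 controls in 27 of the 48, where 18.2% of all genes did so, and below them in 1, Rfc2, where 16.8% did so.

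The 6 called in the lung spread over 6 roles. Mcm7 was at 77.5, 58.8 and 53.1 CPM in lung AML, against 28.1, 30.0 and 29.3 CPM in lung control (log2 fold change 1.12 ± 0.22, adjusted p = 0.0250). Mcm10 was at 6.52, 2.95 and 3.41 CPM in lung AML, against 0.609, 1.27 and 0.333 CPM in lung control (log2 fold change 2.54 ± 0.58, adjusted p = 0.0458). Pole was at 8.21, 2.74 and 5.12 CPM in lung AML, against 1.09, 1.38 and 0.814 CPM in lung control (log2 fold change 2.29 ± 0.43, adjusted p = 0.0224). Mcm10 and Pole were low in both groups, the lung control libraries together holding 56 counts of Mcm10. Rfc4 was at 22.7, 13.5 and 14.9 CPM in lung AML, against 6.61, 7.57 and 7.70 CPM in lung control (log2 fold change 1.22 ± 0.26, adjusted p = 0.0376). Asf1b was at 17.5, 7.06 and 8.66 CPM in lung AML, against 4.17, 3.19 and 2.70 CPM in lung control (log2 fold change 1.73 ± 0.33, adjusted p = 0.0237). Tfdp2 was at 65.6, 62.2 and 60.3 CPM in lung AML, against 39.0, 44.4 and 34.0 CPM in lung control (log2 fold change 0.68 ± 0.15, adjusted p = 0.0387). The groups did not overlap in any of the 6, and Tfdp2 had the smallest change and the tightest AML libraries. These calls were lost on leaving out single libraries. The count was 0 without lung AML library 1, lung AML library 3, lung control library 2 or lung control library 3, and 1 without lung control library 1. It was 3 without marrow control library 1 or 2, which share the spread estimate, and 10 without marrow AML library 3. Over all genes, the 212 called higher became 50 to 140 in the fits that left 0 or 1 of the 48. Where a call was lost on leaving out a lung library, the log2 fold change was 0.94 to 1.23 for Mcm7, 2.11 to 3.20 for Mcm10, 1.84 to 2.50 for Pole, 0.96 to 1.31 for Rfc4, 1.23 to 1.88 for Asf1b and 0.59 to 0.78 for Tfdp2. With the DESeq2 Wald test 15 of the 48 were called higher, and with library totals alone 3.

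The other 42 genes were not called in the lung. Rrm1 came nearest, at 172, 62.1 and 81.0 CPM in lung AML, against 32.5, 44.1 and 39.3 CPM in lung control (log2 fold change 1.44 ± 0.33, adjusted p = 0.0504). Pcna, at 51.1, 37.6 and 39.4 CPM in lung AML and 35.4, 36.6 and 30.6 CPM in lung control, was not called (0.32 ± 0.22, adjusted p = 0.560). Gins4 was at 36.3, 30.9 and 29.4 CPM in lung AML, against 41.4, 31.0 and 27.3 CPM in lung control, with overlapping groups. Lung AML library 1 was the highest of the 3 for 47 of the 48 genes, and it was also the deepest library, at 39.2 M counts. Its 15 erythroid genes summed to 333 CPM, against 346 to 425 CPM in the lung controls, and over all lung AML libraries 2 of 15 erythroid genes were called higher. Those were the transcription factor genes Klf1, at 17.5, 5.35 and 9.70 CPM in lung AML, against 0.783, 0.691 and 0.740 CPM in lung control (3.88 ± 0.42, adjusted p = 0.00239), and Gata1, at 22.3, 7.19 and 12.7 CPM in lung AML, against 1.22, 0.845 and 1.26 CPM in lung control (3.67 ± 0.45, adjusted p = 0.00366). Both were highest in lung AML library 1. The erythroid sum includes Car2, a carbonic anhydrase gene, at 223, 140 and 179 CPM in lung AML, against 141, 186 and 185 CPM in lung control. Of the 15 erythroid log2 fold changes 9 were above 0 and 6 below. At an unadjusted p under 0.05, 6 genes were higher and 3 lower. The 3 lower were Hba-a2 (-4.03), Hbb-bs (-3.21) and Alas2 (-2.52), with no lower gene called. Of the 15 pan-endothelial genes 7 were lower in lung AML, and the neutrophil list had a median of 1.47 with 9 of 10 values above 0 and no gene called (4 higher at an unadjusted p under 0.05). In the remaining marker lists Kit, Hopx and Cxcl12 were called lower and Spp1 higher in lung AML. Kit was the 1 gene called of 10 myeloid progenitor and blast genes, whose median was 0.73, with 5 values above 0 and 5 below. At an unadjusted p under 0.05, 4 of these 10 were higher and 1 lower. The 4 were Mpo (log2 fold change 7.03), Elane (9.35), Prtn3 (3.12) and Ctsg (7.15). The part of these lists in the values was not tested. Among the 78 further replication genes, 1 was called in lung AML, where 1.17% of all genes tested were called higher and 1.16% lower. It was Rbl2, a relative of the retinoblastoma protein, chosen here after its values were seen (0.95 ± 0.17, adjusted p = 0.0207). That call was lost without lung control library 1 (adjusted p = 0.0817) or 2 (0.0959), or lung AML library 1 (0.0918) or 3 (0.0815). Of the mitosis genes 1 of 15 was called, Ccnb1, cyclin B, also named for its value (2.39 ± 0.52, adjusted p = 0.0387). Its call was lost without any of lung control libraries 1 to 3, lung AML libraries 1 and 3, or marrow control libraries 1 to 3 (adjusted p from 0.0591 to 0.167), and with limma-voom (0.0714) or no filter (0.0677).

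The AML effect differed between the tissues for nearly all of these genes. In the interaction of the same edgeR model, marrow effect minus lung effect, 47 of 48 were called lower, where 16.1% of all genes were lower, 14.6% higher and 30.7% called in either direction. The median difference was -3.06, beside -0.09 over all genes. Its extremes were Mcm10, at -6.08 ± 0.78 (adjusted p = 0.000370), and Pold2, at -0.93 ± 0.30 (adjusted p = 0.0350). E2f1 was the 1 gene not called, at -2.48 ± 0.89 (adjusted p = 0.0549). By role, the median difference lay between -2.13 for the clamp and its loader and -3.74 for origin licensing. Marker lists moved in the same interaction, with 10 of 15 erythroid genes lower (median -4.07), 15 of 15 mitosis genes lower (median -3.78) and 8 of 10 pericyte and smooth muscle genes higher (median 4.25). Of the 10 leukocyte genes 5 and of the 15 pan-endothelial genes 3 were higher, with none lower. The part of these lists was not tested. Because the marrow controls and lung controls differ so much in level, the difference compares folds, not amounts.

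The tissues themselves were set apart by these genes in the absence of leukaemia. All 48 were higher in marrow control than in lung control by edgeR's quasi-likelihood test, where 29.4% of all genes were higher, 34.7% lower and 64.2% called in either direction. The median log2 fold change was 5.36, from 2.10 for Pold2 to 9.03 for Ccne1, and the summed level in marrow control was 32.2 times that in lung control. Ratios of summed levels were 81.6 for nucleotide supply, 69.3 for chromatin assembly and 41.3 for licensing, but 12.9 for polymerases and primase. Per exon length, Gins4 and Pold2 were the highest of the 48 in lung control, at 24.6 ± 5.41 and 19.5 ± 2.40 CPM per kb. Pcna came next at 14.2 ± 1.33 CPM per kb (SD, n = 3 each). This order depends on the exon length used, which was 1.349 kb for Gins4 and 6.303 kb for Rfc2. Not divided by length, Rpa1 (69.2 CPM), Rfc2 (67.0 CPM) and Mcm6 (49.0 CPM) were above Pold2 (36.9 CPM) and Gins4 (33.2 CPM) in lung control. Rrm2, highest in marrow control, was at 7.78, 8.53 and 7.77 CPM in lung control. Erythroid markers differ in the same way, at 23173 to 25913 CPM in marrow control and 346 to 425 CPM in lung control, and their part was not tested.

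Under AML that gap narrowed. The summed level was 3.88 times as high in marrow AML as in lung AML, and 44 of 48 genes were called higher in marrow AML, where 22.4% of all genes were higher, 25.2% lower and 47.6% called in either direction. The median log2 fold change was 2.11. Mcm4 (0.92, adjusted p = 0.0748), Pold1 (0.70, adjusted p = 0.0977), Rfwd3 (0.17, adjusted p = 0.397) and Tfdp2 (-0.37, adjusted p = 0.0584) were not called. Rfwd3 was at 32.9, 29.6 and 30.7 CPM in marrow AML, against 29.0, 25.4 and 28.7 CPM in lung AML. Tfdp2 was the 1 gene with a lower mean in marrow AML, at 48.6 ± 6.04 CPM, against 62.7 ± 2.64 CPM in lung AML (SD, n = 3 each). It was called lower without marrow AML library 1, lung control library 1 or lung control library 2, where the count of genes called lower was 1.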

How the data were processed

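RNA was sequenced from 12 libraries, 3 per group, prepared, per the labels, with low-input kits. The authors deposited raw counts per gene symbol for each library, with no normalisation, and per the file names strand was ignored, so overlapping genes cannot be told apart. The tools bcl2fastq and STAR and the build mm10 appear in the submitters' processing notes. What counted the reads, and on which annotation, is not stated there. Positions, exon lengths and overlaps came from GENCODE for GRCm38, and promoters from RefSeq.

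Counts were tested in R 4.3.3 with edgeR 4.0.16 (quasi-likelihood F test, robust, 4 group means, 8 residual degrees of freedom) after filterByExpr (a count of at least 10, a total of at least 15) and TMM scaling (factors 0.865 to 1.25). A gene was called at a Benjamini-Hochberg adjusted p under 0.05 over all 18147 genes tested. CPM are TMM-scaled, and SE is the fitted change over the root of F. Scripts were tested on simulated data. Alternatives were DESeq2 1.42.0 (size factors, Wald test), limma 3.58.1 (voom with quality weights), library totals alone, no filter, 5 CPM in 3 libraries, only the libraries compared, a block on replicate number, and 1 library left out at a time. No 2 replicates of a group agreed within sampling noise. Ctps1 is Ctps in the files.

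The 48 genes and the lists were chosen with earlier results of these data known. Per-library values are given for the 2 genes of each role with the highest mean CPM over all libraries, and for genes that were not called, called against the others, lowest or highest in change. Of each other list the 2 genes with the smallest p in the marrow are named, with any called the other way. A gene that this rule takes is not reported here.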

Additional observations from a re-analysis of the deposited data

Results flagged for a closer look

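The AML effect in marrow differed from that in lung by the interaction test for 47 of the 48 genes, E2f1 being the exception. The 2 genes of each role with the highest mean CPM, 16 in all, were each called, and their log2 difference of the effects, marrow minus lung, was as follows. In licensing it was -3.38 for Mcm6 and -3.95 for Mcm7, and at the fork -4.22 for Wdhd1 and -1.92 for Gins4. For synthesis it was -2.66 for Prim1, -2.07 for Pola2, -2.69 for Pcna and -3.11 for Rfc4. Of the lagging strand genes, Rpa1 stood at -1.78 and Lig1 at -4.19. The reductase subunits Rrm2 and Rrm1 had -4.92 and -3.23, Uhrf1 and Asf1b -4.39 and -3.98, and the cyclins Ccne2 and Ccne1 -4.12 and -4.58.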

How the results depend on the processing

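The 48 falls in the marrow were 47 or 48 under every alternative, Pold2 being the gene lost, except that the DESeq2 Wald test gave no adjusted p for Ccne1. In marrow control against lung control the count was 48, or 47 with that test for the same reason. The interaction count was 43 with library totals alone and 45 to 48 without single libraries. The 6 lung calls were 3 with library totals alone, 15 with the DESeq2 Wald test, and 0 to 10 on leaving out single libraries. Between marrow AML and lung AML, 0 genes were lower, with 1 under DESeq2 size factors or the DESeq2 Wald test and 0 to 1 on leaving out single libraries. The labels do not say whether replicate numbers pair the libraries. Correlations of same-numbered deviations lay between -0.16 and 0.18, which cannot decide this. Above the limit of 0.1 set for pairing were marrow control with lung control in replicate 2 (0.18) and lung AML with lung control in replicate 1 (0.15). With a replicate block the counts were 48 in the marrow, 4 in the lung, 48 for the interaction, and 48 and 44 between tissues. Over all settings tried for named genes, 27 results lost their call in the marrow (Pold2, E2f5, Cdkn1b), 62 in the lung, and 1 in the interaction (Ccne1 with no filter, adjusted p = 0.0651), and none turned direction. The median of all genes in the marrow moved to 0.16 with library totals alone, against -0.11, while the 48 genes' median relative to it was -2.21 against -2.26. Counting limits the precision of low genes in the lung: Orc1 had 74 counts in lung AML and 32 in lung control.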
